A study of Homo sapiens with 36 samples.

Results

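Methylated adenosines in transcripts of the proteasome genes were examined in all 3 site tables of the study. The members were every listed site whose gene symbol starts with PSMA, PSMB, PSMC, PSMD, PSME, PSMF or PSMG. They made up 385 of 100897 listed sites, or 271 different positions. In HEK293T they were 190 of 57011 sites in 40 genes, in BE(2)-C without ATRA 121 of 22855 sites in 31 symbols, and in BE(2)-C with ATRA 74 of 21031 sites in 30 symbols. Of the 48 proteasome genes looked for, 42 had a site in at least 1 table. PSMA2, PSMA8, PSMB8, PSMB9, PSMB11 and PSMG2 had no listed site in any of the 3. In each of the BE(2)-C tables, 2 sites belonged to PSMD5-AS1, an antisense RNA that shares the start of its symbol, and these are left out of the counts by region and role below.

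The cells were depleted of PCIF1 with an siRNA (siPcif1) or received a scrambled siRNA (siScram), with 3 m6ACE and 3 input libraries per group. The 6 m6ACE groups were HEK293T siPcif1 and siScram, BE(2)-C siPcif1 and siScram without ATRA, and BE(2)-C siPcif1 and siScram with ATRA. BE(2)-C is a human neuroblastoma line, transfected for 24 hours and, in the differentiated groups, then kept in 10 uM all-trans retinoic acid (ATRA) for 4 days. The authors' table of the groups without ATRA is named for DMSO, a common solvent, which the labels do not mention. HEK293T is a human embryonic kidney line (treatment not given in the sources used here) that the labels also call neuroblastoma. All samples are labelled wild type, so PCIF1 was targeted by siRNA and its gene not deleted. Nothing states that the 3 replicates of a group came from separate cultures, so the p-values below reflect only how far these libraries spread, and that spread may be technical.

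The proteasome is the protease that degrades ubiquitin-tagged proteins. Its 20S core is a barrel of alpha rings, which form the gate, around beta rings, which hold the peptidase sites, and the 19S regulatory particle caps it with a base of unfolding ATPases and a lid that removes ubiquitin. Most of its genes are expressed in all cell types and are known to be controlled together. m6Am is a methylated adenosine at the first transcribed position, next to the cap, and PCIF1 writes it. Internal m6A is written by METTL3, mostly in the sequence context DRACH (D is A, G or T, R is A or G, H is A, C or T). The m6ACE assay crosslinks an antibody to N6-methylated adenosine and maps both marks to a single base, and RML, the relative methylation level, is the authors' ratio for each site and library.

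The sequences around start-proximal adenosines are shown first for sites that were lower in every siPcif1 library than in any siScram library of HEK293T. Each is 21 bases of the RefSeq GRCh38.p14 sequence, 5′ to 3′ on the transcribed strand, and the capitals mark the 5-base motif given in the authors' table, with the methylated adenosine at its centre.
PSMA4: cgcgggggCCATAttagcagc
PSMB2: gtcgtgctGCAGGcgtcgcgc
PSMC1: cggcagcgGCAGCtcaagtgg
PSMD2: gcgggccgGCAGTggcggcgg
PSMD14: ttcgcggcGGAGGcccgggca
PSMD9: agccgtagTTACGgtcgactg
PSMD10: cgcgacaaGTAGTtgctggga
These windows lie at chr15:78540434-78540454, plus strand (PSMA4), chr1:35641528-35641548, minus strand (PSMB2), chr14:90256567-90256587, plus strand (PSMC1), chr3:184299244-184299264, plus strand (PSMD2), chr2:161308431-161308451, plus strand (PSMD14), chr12:121888780-121888800, plus strand (PSMD9) and chrX:108091528-108091548, minus strand (PSMD10). None of the 7 motifs is a DRACH motif.

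Next come PSMA5, whose site was called in BE(2)-C without ATRA, and PSMB4, PSMD3 and PSMC4, whose siPcif1 and siScram libraries overlapped in all 3 contexts.
PSMA5: tcgcacgcGCAGTtggtcctt
PSMB4: aagcgcttTCATTttttctgc
PSMD3: ggcgtttcCCAGAaggcccag
PSMC4: aagcggtgACAGAtcatccca
They lie at chr1:109426438-109426458, minus strand (PSMA5), chr1:151399554-151399574, plus strand (PSMB4), chr17:39980797-39980817, plus strand (PSMD3) and chr19:39971155-39971175, plus strand (PSMC4). The PSMA5, PSMD3 and PSMC4 adenosines are the first base of the gene in RefSeq, and that of PSMB4 lies upstream of it. The motif in the table equalled the RefSeq sequence at all 84 of the 126 different 5'UTR sites that fell within the promoter table.

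In HEK293T, proteasome transcripts were listed mostly for their 5' ends. There 118 of the 190 sites (62.1%) were annotated as 5'UTR, in 37 genes, against 21.7% of all sites of the table. Of the other HEK293T sites 39 lay in coding sequence, 31 in 3'UTRs and 2 in introns. In BE(2)-C with ATRA 40 sites (55.6%) lay in 5'UTRs and 32 (44.4%) were internal, against 2104 of all 21031 sites in 5'UTRs. Without ATRA 37 (31.1%) lay in 5'UTRs, against 9.39% of all sites, and 82 (68.9%) were internal, against 85.3%. Of the 114 5'UTR sites with a distance from the RefSeq start, 91 (79.8%) lay within 50 nt of it, against 64.0% of all 5'UTR sites. In BE(2)-C this share was 86.5% of 37 sites without ATRA, against 59.5% of all, and 80% of 40 sites with ATRA, against 58.6%. A single one of the 118 HEK293T sites, the first base of PSMB7 (GAACT), had a DRACH motif, and the base before the adenosine in the others was C at 70 sites, G at 24, T at 21 and A at 2.

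Some facts of the whole tables bear on these values. All 22855 sites of BE(2)-C without ATRA had a median log2 change of -0.43, those of BE(2)-C with ATRA of 0.12 and those of HEK293T of -0.08. Expression was not measured in these tables, and of 8 neuroblastoma markers 7 had a listed site in each BE(2)-C table, against 2 in HEK293T. The depth behind an RML is unknown, and the level of PCIF1 itself was not analysed here.

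The libraries did not always sort by group. Across all sites of a table, which share their libraries, log2 values of BE(2)-C with ATRA correlated at 0.862 to 0.892 among siPcif1 libraries and at 0.816 to 0.835 among siScram libraries. The highest of all pairs there was siPcif1 replicate 3 with siScram replicate 1, at 0.908. In BE(2)-C without ATRA pairs of 1 siPcif1 and 1 siScram library (0.861 to 0.894) reached as high as siPcif1 pairs (0.866 to 0.885), below siScram pairs (0.905 to 0.919). In HEK293T mixed pairs had 0.748 to 0.805, siPcif1 pairs 0.781 to 0.819 and siScram pairs 0.829 to 0.844.

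In HEK293T, the median methylation at the 5' ends of proteasome transcripts was lower with siPcif1 in every library, and that at their internal sites was not. The median RML of the 118 5'UTR sites was 1.96, 2.29 and 2.74 in the siPcif1 libraries, against 3.67, 3.93 and 3.54 in the siScram libraries. The median RML of the 70 coding and 3'UTR sites was 0.714, 0.639 and 0.766 with siPcif1, against 0.655, 0.806 and 0.664 with siScram. Every siPcif1 library lay below every siScram library in 5'UTRs, whereas at internal sites the groups overlapped. On the log2 scale the excess of 5'UTR over internal sites was 1.38 ± 0.19 in siPcif1 and 2.00 ± 0.06 in siScram (SD, n = 3 each). Over all sites of the table it was 0.36 ± 0.07 in siPcif1 and 1.09 ± 0.015 in siScram.

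**Figure D1:**
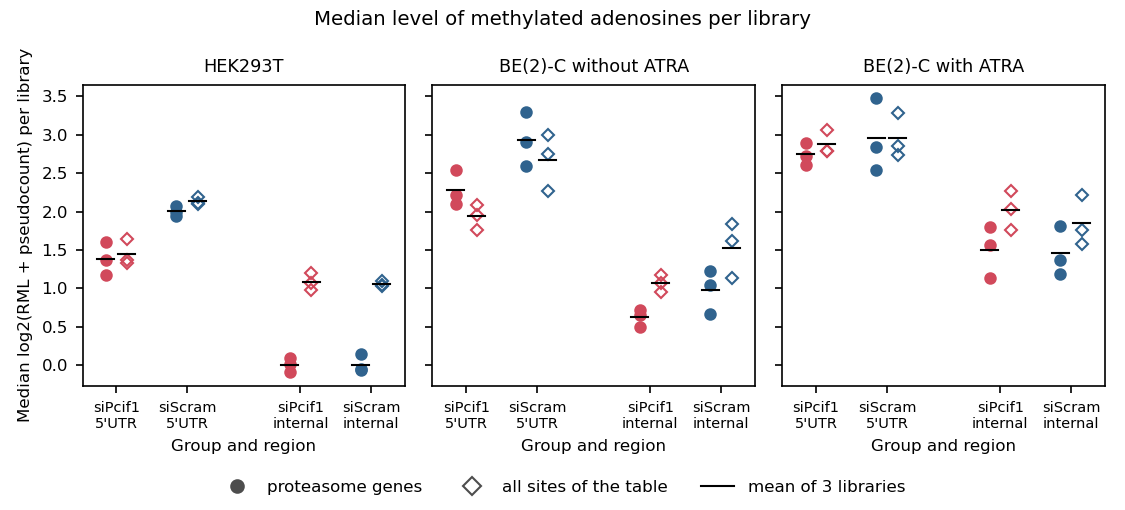
Median log2(RML + pseudocount) in each m6ACE library for 5'UTR and for internal (coding and 3'UTR) sites, with siPcif1 left of siScram, in 3 contexts. Filled circles are proteasome genes, open diamonds all sites of the table and bars the mean of 3 libraries; in HEK293T the 3 siPcif1 libraries of proteasome 5'UTR sites (1.17, 1.37 and 1.60) all lie below the 3 siScram libraries (1.99, 2.08 and 1.94).

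Changes of single sites are given as siPcif1 minus siScram of log2(RML + pseudocount), with the standard error and the Benjamini-Hochberg adjusted p of limma over all sites of the table. The median change of the 118 HEK293T 5'UTR sites was -0.54, against -0.65 over all 12374 5'UTR sites, and 105 (89.0%) were below 0, against 86.1% of all. The smallest adjusted p was 0.157, so limma called 0 members at the threshold of 0.05, beside 0.0% of all 5'UTR sites. With the unadjusted p held to 0.05, 30 members were lower (25.4%, beside a background of 30.3%) and 0 higher (beside 0.42%). All 3 siPcif1 libraries were below all 3 siScram libraries at 32 members (27.1%, beside 32.9%) and above them at 0 (beside 0.937%). These shares were near or under the background of all 5'UTR sites.

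The median change of HEK293T 5'UTR sites was below 0 at every distance from the RefSeq start. It was -0.73 at 16 sites upstream of it, -0.65 at 12 sites exactly at it, -0.60 at 63 sites 1 to 50 nt downstream, -0.34 at 6 sites 51 to 100 nt downstream and -0.54 at 17 sites beyond. Over all genes these medians were -0.72, -0.79, -0.73, -0.51 and -0.42. By the base before the adenosine, 15 of 70 non-DRACH sites after C, 10 of 24 after G, 5 of 21 after T and 0 of 2 after A were lower unadjusted, with medians of -0.56, -0.56, -0.49 and -0.37. These are shares of 21.4%, 41.7%, 23.8% and 0%, beside 33.0%, 30.3%, 33.0% and 18.9% over all genes, whose medians were -0.72, -0.60, -0.71 and -0.38.

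The core particle had 48 5'UTR sites in 13 genes with a median change of -0.48, of which 40 were below 0. The regulatory particle had 40 sites in 14 genes with a median of -0.66, of which 37 were below 0. Within the core, alpha subunits (19 sites) had a median of -0.60 and beta subunits (29 sites) of -0.43. PSMB3 alone gave 10 of the beta sites, with a median of -0.065. Of these, 4 lie on a second copy of the locus, an alternate contig, and changed by -0.09 to 0.08. The core and beta medians include them. Within the regulatory particle, the ATPases (16 sites) had a median of -0.50, the non-ATPase base subunits (8 sites) of -0.81 and the lid (16 sites) of -0.72, and all 16 lid sites were below 0. The 13 sites of the activators PSME1 to PSME4 had a median of -0.53, and all 13 were below 0. Sites of the assembly chaperones of the base (8 sites, PSMD9 and PSMD10) and of the core (8 sites, PSMG1, PSMG3 and PSMG4) had medians of -0.85 and -0.34. No difference between these roles was tested.

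Each gene is shown by its lead 5'UTR site, the one with the highest mean RML over the 6 libraries. Of 37 lead sites in HEK293T, 33 had a change below 0 (89.2%, beside 87.8% of the lead sites of all genes), and 10 had every siPcif1 library below every siScram library (27%, beside 31.5%). The median change was -0.66, and mean RML ran from 0.482 to 40.9 with siPcif1 and from 0.897 to 82.9 with siScram. The highest levels were at the first base of PSMC4 and of PSMB6, and the lowest was in PSMF1, which encodes the inhibitor PI31.

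**Figure D2:**
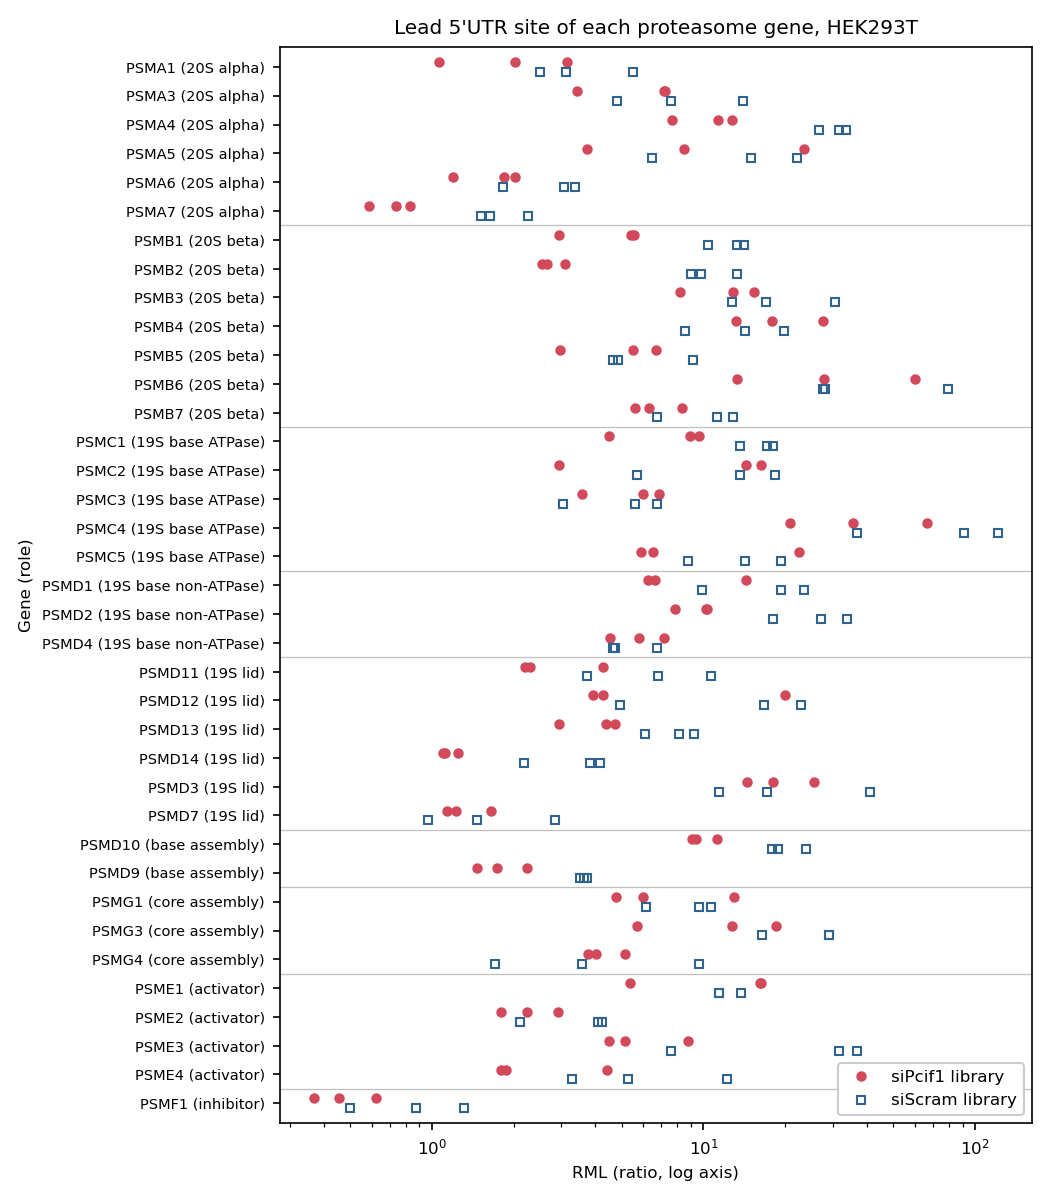
RML (log axis) of the lead 5'UTR site of each of 37 proteasome genes in HEK293T, by role, with the 3 siPcif1 libraries (filled circles) above the 3 siScram libraries (open squares) of each gene. The groups do not overlap in 10 genes, among them PSMB2, PSMA4, PSMD2 and PSMD14, and PSMB4, PSMC3 and PSMD4 are among those not lower with siPcif1.

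Among the core genes of HEK293T, PSMB2 had the smallest p of any lead site. PSMB2 encodes a structural beta subunit, and its site 12 nt upstream of the RefSeq start had RML of 3.1, 2.55 and 2.66 in the siPcif1 libraries, against 9.81, 8.98 and 13.3 in the siScram libraries. All siPcif1 libraries were lower, a change of -1.83 ± 0.39 (limma adjusted p = 0.169). PSMA4, an alpha ring subunit, had 11.3, 7.69 and 12.7 in the siPcif1 libraries, against 33.6, 26.6 and 31.6 in the siScram libraries at its site 39 nt from the start. The groups did not overlap, and the change was -1.53 ± 0.42 (limma adjusted p = 0.216). PSMB1, another structural beta subunit, had 2.94, 5.43 and 5.54 in the siPcif1 libraries, against 13.3, 10.4 and 14.1 in the siScram libraries at chromosome 6 position 170553299, again without overlap, a change of -1.42 ± 0.43 (limma adjusted p = 0.241). PSMA7, also of the alpha ring, had 0.588, 0.735 and 0.832 in the siPcif1 libraries, against 1.64, 1.52 and 2.25 in the siScram libraries at chromosome 20 position 62143392. These lower levels did not overlap either, and the change was -1.04 ± 0.27 (limma adjusted p = 0.201).

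The other core genes with 5'UTR sites in all 3 contexts had overlapping groups in HEK293T. PSMA5 (alpha ring) had 23.5, 3.72 and 8.49 in the siPcif1 libraries, against 6.48, 22 and 14.9 in the siScram libraries at its first base, with siPcif1 replicate 1 the highest of all 6 libraries. PSMB3 (beta ring) had 8.23, 12.9 and 15.3 in the siPcif1 libraries, against 30.5, 16.9 and 12.7 in the siScram libraries, where siScram replicate 3 lay within the siPcif1 range. PSMB4 (beta ring) had 13.2, 17.9 and 27.5 in the siPcif1 libraries, against 8.58, 19.7 and 14.2 in the siScram libraries, and its change of 0.47 ± 0.49 was the highest of any lead site. PSMB5, the subunit with chymotrypsin-like activity and the main target of bortezomib, had 5.51, 2.97 and 6.71 in the siPcif1 libraries, against 9.15, 4.84 and 4.65 in the siScram libraries, a change of -0.28 ± 0.47. Its lowest and highest libraries were of different groups but the ranges crossed. PSMB6, the caspase-like subunit, had 60.2, 27.8 and 13.2 in the siPcif1 libraries, against 27.5, 79.7 and 28.1 in the siScram libraries, with a wide spread inside each group. PSMB7, the trypsin-like subunit, had 6.3, 8.37 and 5.62 in the siPcif1 libraries, against 11.2, 6.73 and 12.8 in the siScram libraries, where 1 siScram library fell within the siPcif1 range. limma adjusted p was between 0.666 and 0.885 for these 6 sites.

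In the regulatory particle the base scaffold PSMD2 and the lid deubiquitinase PSMD14 had separated groups. PSMD2 had RML of 10.3, 7.86 and 10.2 in the siPcif1 libraries, against 27.1, 33.8 and 18.1 in the siScram libraries, a change of -1.41 ± 0.44 (limma adjusted p = 0.249). PSMD14, the metalloprotease that cuts ubiquitin chains off the substrate, had 1.1, 1.12 and 1.25 in the siPcif1 libraries, against 3.81, 4.17 and 2.19 in the siScram libraries at its single 5'UTR site, with a narrow siPcif1 range. The change was -1.30 ± 0.35 (limma adjusted p = 0.21). PSMC1, an ATPase, had 4.49, 8.92 and 9.66 in the siPcif1 libraries, against 18, 17.2 and 13.7 in the siScram libraries, without overlap, a change of -1.11 ± 0.45 (limma adjusted p = 0.364).

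The remaining regulatory genes with sites in all contexts overlapped between groups. PSMC4, an ATPase with the highest RML of all members, had 20.9, 66.4 and 35.6 in the siPcif1 libraries, against 121, 90.7 and 36.8 in the siScram libraries, and 1 siPcif1 library lay above the lowest siScram library. PSMC2, also an ATPase, had 2.94, 14.3 and 16.2 in the siPcif1 libraries, against 18.3, 13.7 and 5.7 in the siScram libraries, and the ranges overlapped widely. PSMC5, a further ATPase, had 5.88, 6.5 and 22.5 in the siPcif1 libraries, against 14.2, 19.4 and 8.77 in the siScram libraries, with siPcif1 replicate 3 highest. The lid subunit PSMD3 had 14.5, 25.6 and 18 in the siPcif1 libraries, against 17.1, 41 and 11.4 in the siScram libraries, a change of -0.09 ± 0.54. PSMD4, a ubiquitin receptor of the base, had 7.15, 5.78 and 4.53 in the siPcif1 libraries, against 6.76, 4.65 and 4.72 in the siScram libraries, a change of 0.11 ± 0.40, and the 2 ranges nearly coincided. limma adjusted p of these 5 sites ran from 0.555 to 0.977.

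Activator and assembly genes had lead sites mostly below 0 as well. PSME3, the nuclear PA28 gamma cap, had RML of 5.14, 4.48 and 8.74 in the siPcif1 libraries, against 36.6, 7.59 and 31.6 in the siScram libraries, a change of -1.77 ± 0.62 (limma adjusted p = 0.3), and siScram replicate 2 fell within the siPcif1 range. PSME2, a subunit of the interferon-inducible PA28 cap, had 1.8, 2.24 and 2.91 in the siPcif1 libraries, against 2.11, 4.1 and 4.24 in the siScram libraries, with overlap. PSMD10 (gankyrin, a chaperone of the base) had 9.38, 11.2 and 9.05 in the siPcif1 libraries, against 18.7, 17.8 and 23.9 in the siScram libraries at its lead site, a change of -1.0 ± 0.41 (limma adjusted p = 0.365). A weaker PSMD10 site 22 nt upstream of the RefSeq start, at chromosome X position 108091564, had 0.367, 0.359 and 0.694 in the siPcif1 libraries, against 2.75, 3.41 and 4.38 in the siScram libraries. Its change of -2.31 ± 0.32 was the lowest of any member and had the smallest adjusted p among them in this table (limma, 0.157). PSMD9, another base chaperone, had 1.47, 1.74 and 2.25 in the siPcif1 libraries, against 3.64, 3.52 and 3.73 in the siScram libraries, without overlap, a change of -0.91 ± 0.34 (limma adjusted p = 0.333). PSMG3, a chaperone of the alpha ring, had 5.71, 12.8 and 18.5 in the siPcif1 libraries, against 29, 29.1 and 16.4 in the siScram libraries, where 1 siPcif1 library exceeded 1 siScram library.

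Several sites of one gene mostly had changes of the same sign. Of 31 genes with 2 or more 5'UTR sites in HEK293T, 24 had every site below 0 and 7 had both signs, over a median span of 30 nt. This count was not made for all genes, and 86.1% of all 12374 5'UTR sites of the table were below 0. PSMB3 had the most, 10 sites, but 4 of them lie on an alternate contig of chromosome 17 whose sequence repeats the locus, so reads of this gene may have been split. Those 4 changed by -0.09 to 0.08. Without them the median change of the remaining 114 5'UTR sites was -0.56, and 104 of 114 were below 0.

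Taken as 1 value a gene, the mean of its non-DRACH 5'UTR sites relative to the library's median internal DRACH site, 33 of 36 proteasome genes were below 0 in HEK293T. The median was -0.61, against -0.74 over all 5069 genes, where 92.3% were below 0. limma called 1 gene at an adjusted p of at most 0.05, PSMD14, beside 4.28% of all genes called lower. Its relative log2 level was -0.75, -0.84 and -0.85 in siPcif1, against 0.67, 0.84 and -0.03 in siScram, and all siPcif1 libraries were lower, a change of -1.31 ± 0.32 (limma adjusted p = 0.0499). That call sits at the threshold and was lost under 6 of the other settings tried and when any single library was left out. Next by adjusted p were PSMD11 (lid, -1.20 ± 0.31), PSMB2 (-1.35 ± 0.37), PSMD10 (-1.38 ± 0.39) and PSMD9 (-0.76 ± 0.23), with limma adjusted p of 0.0555, 0.0576, 0.0609 and 0.0698. Without adjustment 13 of 36 genes were lower (36.1%, beside 35.8% of all genes) and 0 higher (beside 0.217%), and groups were separated in 15 (41.7%, beside 41.1%). PSMB4 (0.46 ± 0.45), PSMC3 (0.10 ± 0.44) and PSMD4 (0.01 ± 0.39) were the 3 genes not below 0.

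Internal sites of proteasome genes had low RML in HEK293T, and their median change was near 0. The median RML of all internal sites of the table was 1.82 ± 0.16 in siPcif1 and 1.77 ± 0.05 in siScram (SD, n = 3 each), above the members' 0.706 ± 0.064 in siPcif1 and 0.708 ± 0.084 in siScram. The 70 sites had a median change of 0.004, against 0.01 over 39747 internal sites, and 36 of them carried a DRACH motif. limma called 0 of them after adjustment (beside 0.0%). Unadjusted, 9 were lower (12.9%, beside 3.05% of all internal sites) and 3 higher (4.29%, beside 3.45%), and the groups were separated at 7 lower (10%, beside 5.40%) and 3 higher sites (4.29%, beside 6.14%).

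Most of the lower ones lay near the gene start. A split at 500 nt from the RefSeq start, chosen after the values were seen, left 16 internal sites in 8 genes within it, with a median change of -0.75, and 54 beyond, with a median of 0.03. Of the 16, 8 were lower at an unadjusted p, beside 10.8% of 1393 internal sites this near the start in all genes, and the groups were separated, lower with siPcif1, at 5 (beside 13.1%). Of the 54, 1 was lower, in PSMB10 (-0.80), beside 2.75% of 37334, and 2 were separated (beside 5.08%). All 8 lower sites within 500 nt belonged to PSMC3 and PSMD8, which have clusters of coding sites, so they are not independent of each other. No other gene had a lower site this near the start at that p. A PSMB1 site at 105 nt went the other way (0.33), higher at an unadjusted p, beside 40 of 1393 in all genes. Groups were separated with siPcif1 higher at 1 of the 16, beside 66 of 1393. PSMC3, an ATPase of the base, had 4 sites 178 to 200 nt from the start, all 4 lower at an unadjusted p, with changes of -1.50 to -1.0. PSMD8, of the lid, had 5 sites at 187 to 217 nt with changes of -1.12 to -0.64, of which 4 passed that threshold.

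**Figure D3:**
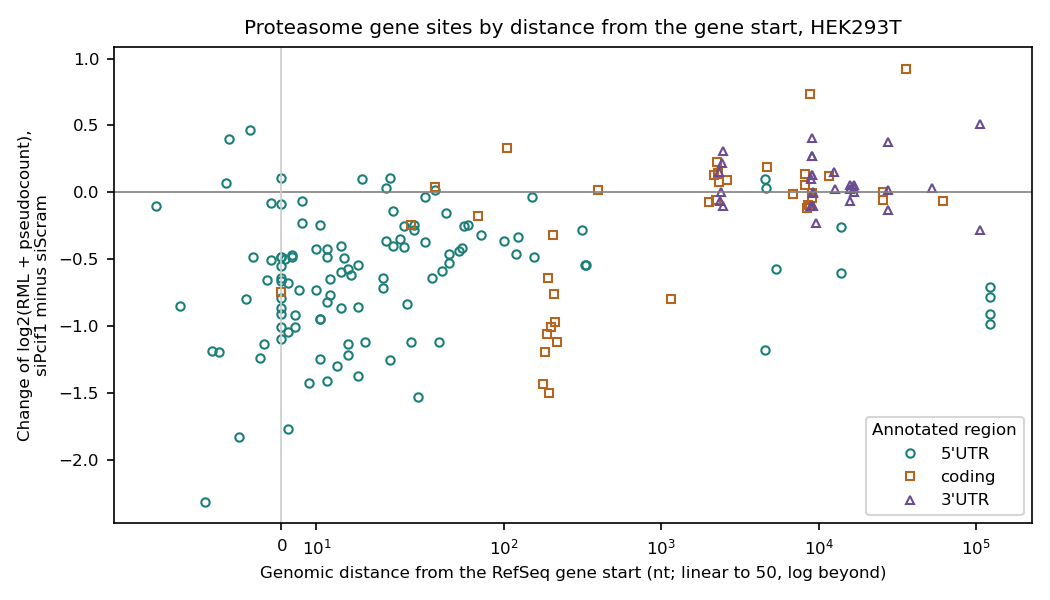
Change of log2(RML + pseudocount), siPcif1 minus siScram, of proteasome gene sites in HEK293T against their genomic distance from the RefSeq gene start (nt, linear to 50 and log beyond), by annotated region. The 2 intron sites and the sites without a distance are not drawn; coding sites about 200 nt from the start, those of PSMC3 and PSMD8, lie as low as the 5'UTR sites, and coding and 3'UTR sites beyond 500 nt scatter around 0.

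The strongest site of these clusters, in PSMC3 at chromosome 11 position 47426246 (motif TGACT), had RML of 4, 3.72 and 7.26 in the siPcif1 libraries, against 10.4, 17.9 and 14.8 in the siScram libraries. The groups did not overlap, and the change was -1.50 ± 0.45 (limma adjusted p = 0.239). At the RefSeq start of PSMC3 itself, its single 5'UTR site had 3.57, 6.88 and 5.99 in the siPcif1 libraries, against 3.05, 5.62 and 6.72 in the siScram libraries, with overlap and a change of 0.11 ± 0.45. PSMD8, which had no listed 5'UTR site in HEK293T, had 1.81, 2.57 and 3.32 in the siPcif1 libraries, against 5.48, 5.32 and 6.58 in the siScram libraries at chromosome 19 position 38374788, with no overlap (-1.12 ± 0.39, limma adjusted p = 0.293). Its neighbour at position 38374784 had 1.77, 2.14 and 3.58 in the siPcif1 libraries, against 4.72, 4.39 and 5.9 in the siScram libraries, also without overlap. PSMC6, an ATPase, had a coding site at the RefSeq start itself, chromosome 14 position 52707200, with the motif CTATG. There the values were 10.3, 7.17 and 5.83 in the siPcif1 libraries, against 24.4, 11.4 and 7.6 in the siScram libraries, with overlap and a change of -0.74 ± 0.52.

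Farther from the start the strongest internal sites overlapped between groups. The 3'UTR site of PSME4, the nuclear activator PA200, had 2.79, 8.07 and 5.69 in the siPcif1 libraries, against 2.51, 4.81 and 3.42 in the siScram libraries, a change of 0.51 ± 0.47. The coding DRACH site of the lid gene PSMD11 at chromosome 17 position 32480498 had 1.47, 4.04 and 6.87 in the siPcif1 libraries, against 1.33, 0.822 and 4.09 in the siScram libraries, a change of 0.92 ± 0.62. The coding DRACH site of PSMD7, a lid subunit, at chromosome 16 position 74305666 had 0.42, 0.634 and 0.549 in the siPcif1 libraries, against 0.071, 0.288 and 0.274 in the siScram libraries, every siPcif1 library higher, a change of 0.73 ± 0.19 (limma adjusted p = 0.198). It was chosen after its values were seen.

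In BE(2)-C without ATRA, proteasome sites had median changes below 0 in both regions, as did all sites of that table. The median RML of the 37 5'UTR sites (19 genes) was 3.79, 5.30 and 4.14 with siPcif1, against 5.52, 6.98 and 9.36 with siScram. That of the 82 internal sites was 0.906, 1.15 and 1.07 with siPcif1, against 1.09, 1.55 and 1.84 with siScram. In 5'UTRs the groups did not overlap, and at internal sites siScram replicate 1 fell among the siPcif1 libraries. The median change was -0.59 in 5'UTRs (all 5'UTR sites, -0.64) and -0.34 at internal sites (all internal sites, -0.41). After centring each library on its median these were -0.11 and 0.14, and on internal DRACH sites -0.083 and 0.17, so the internal sign depends on the scaling. Leaving out single libraries gave -0.77 (without siScram replicate 1) to -0.37 (without siScram replicate 3) in 5'UTRs and -0.49 to -0.25 at internal sites, at the same libraries. The excess of 5'UTR over internal levels was 1.66 ± 0.13 in siPcif1 and 1.95 ± 0.11 in siScram (SD, n = 3 each), without overlap, beside 0.87 ± 0.05 in siPcif1 and 1.14 ± 0.02 in siScram over all sites.

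limma called 1 of the 37 5'UTR sites lower, beside 8.57% of all 5'UTR sites, and 0 higher, beside 0.0932%. It was the first base of PSMA5, with RML of 2.04, 1.08 and 1.99 in the siPcif1 libraries, against 6.52, 2.37 and 16.5 in the siScram libraries. All siPcif1 libraries were lower, a change of -1.70 ± 0.37 (limma adjusted p = 0.00186). The call was lost after centring each library on its median or on internal DRACH sites, with no variance trend and with the deposited p-values. It was also lost without siPcif1 replicate 2 or without siScram replicate 3. A second PSMA5 site 11 nt downstream, its lead site here, had 3.32, 3.09 and 2.58 in the siPcif1 libraries, against 6.4, 4.06 and 12.8 in the siScram libraries, again with every siPcif1 library lower (-1.10 ± 0.40, limma adjusted p = 0.085). Before adjustment 7 of 37 sites were lower (18.9%, beside 36.5%) and 0 higher (beside 0.233%), and siPcif1 was separated below siScram at 10 (27.0%, beside 37.0%). Of the 82 internal sites 1 was called lower, beside 3.12% of all internal sites, and 0 higher, beside 0.0103%. It was a coding DRACH site of PSMG3 at chromosome 7 position 1567698. It had 0.897, 0.517 and 0.545 in the siPcif1 libraries, against 0.679, 1.53 and 2.29 in the siScram libraries, with overlap through siScram replicate 1, a change of -0.72 ± 0.21 (limma adjusted p = 0.0334). That call was lost with either centring, with no variance trend, with the deposited p-values and without any single library other than siScram replicate 1. The stricter filter, mean RML above the lower quartile (1.24), removed this site, so it was not tested there. Unadjusted, 20 internal sites were lower (24.4%, beside 25.1%) and 0 higher (beside 0.0462%), and 20 were separated (beside 25.8%). The variance of this table was almost wholly shared between sites, with 91420 total degrees of freedom, so these calls rest little on each site's own spread. Without siScram replicate 1 limma called 17 of 37 5'UTR sites (45.9%, beside 51.2% of all 5'UTR sites) and 46 of 82 internal sites (56.1%, beside 54.0% of all internal sites).

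Among the lead sites of core genes in BE(2)-C without ATRA, PSMB2, PSMB1 and PSMB5 also had every siPcif1 library below every siScram library. PSMB2, at its first base, had 1.47, 1.34 and 1.53 in siPcif1, against 3.38, 2.67 and 3.45 in siScram (-0.91 ± 0.32, limma adjusted p = 0.079). PSMB1 had 2.54, 3.37 and 4.06 in siPcif1, against 4.35, 4.84 and 5.24 in siScram, with narrow ranges on both sides. PSMB5 had 3.13, 3.3 and 3.39 in siPcif1, against 3.59, 4.1 and 6.36 in siScram, and its lowest siScram library lay just above the siPcif1 range.

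The other core lead sites of that table overlapped between groups. PSMA4 had 15.9, 21.7 and 14.3 in siPcif1, against 30.3, 14.2 and 37.4 in siScram, with siScram replicate 2 the lowest of the 6 libraries. PSMB3 had 4.77, 10.8 and 23.2 in siPcif1, against 16.3, 23.7 and 31 in siScram, where siPcif1 replicate 3 lay within the siScram range. PSMB4 had 8.74, 17.2 and 10.6 in siPcif1, against 8.47, 10.9 and 53.2 in siScram, with siScram replicate 3 far above the rest. PSMB6 had 12.7, 17.2 and 4.97 in siPcif1, against 42.4, 9.45 and 21.7 in siScram, where siScram replicate 2 lay within the siPcif1 range. PSMB7 had 3.79, 5.3 and 3.24 in siPcif1, against 5.64, 5 and 6.43 in siScram, and siPcif1 replicate 2 exceeded siScram replicate 2 alone. All 20 core 5'UTR sites had changes below 0, beside 95.7% of all 5'UTR sites of the table.

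Of the activator and regulatory genes in BE(2)-C without ATRA, PSME2 and PSMC1 had separated groups. PSME2 had 2.63, 1.81 and 1.52 in siPcif1, against 3.52, 4.96 and 4.02 in siScram (-0.92 ± 0.35, limma adjusted p = 0.0978). PSMC1 had 3.97, 6.41 and 6.72 in siPcif1, against 6.91, 14.2 and 12.5 in siScram, where the groups nearly touched. The other ATPases overlapped. PSMC2 had 2.1, 5.85 and 2.72 in siPcif1, against 2.83, 3.81 and 4.83 in siScram, with siPcif1 replicate 2 highest. PSMC4 had 19.4, 32.5 and 11.8 in siPcif1, against 17.4, 21.6 and 119.7 in siScram, with siScram replicate 3 far above the rest. PSMC5 had 5.56, 7.23 and 8.29 in siPcif1, against 5.61, 12.1 and 10.5 in siScram, where siScram replicate 1 lay at the lower end of the siPcif1 range.

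PSMD3, the single 5'UTR site not below 0 in this table, had 16.3, 20.5 and 29 in siPcif1, against 9.78, 12.5 and 39.4 in siScram, with siScram replicate 3 highest and the other siScram libraries lowest. PSMD4 had 12.2, 4.6 and 4.14 in siPcif1, against 7.68, 10 and 39.9 in siScram, again with siScram replicate 3 highest. PSMD10, here led by its first base, had 10.1, 3.07 and 6.63 in siPcif1, against 5.09, 10.8 and 23.6 in siScram, with the groups interleaved. PSMG3 had 5.96, 7.68 and 9.39 in siPcif1, against 6.75, 15.6 and 16 in siScram, where siScram replicate 1 lay within the siPcif1 range.

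The strongest internal site in BE(2)-C without ATRA was that of PSMC6 at its RefSeq start. It had 2.54, 9.04 and 4.97 in siPcif1, against 10.4, 20 and 13.3 in siScram, without overlap (-1.43 ± 0.48, limma adjusted p = 0.0592). The PSMC3 coding site at position 47426246 had 4.17, 6.91 and 5.84 in siPcif1, against 6.93, 8.53 and 9.77 in siScram, separated by a narrow margin. The PSMC3 site at position 47425941 had 2.45, 2.25 and 4.89 in siPcif1, against 3.13, 5.83 and 3.94 in siScram, with overlap. A coding site of PSMD5, a base assembly chaperone, at chromosome 9 position 120818051 had 3.1, 4.29 and 3.13 in siPcif1, against 4.29, 9.91 and 8.07 in siScram, where the highest siPcif1 and the lowest siScram values met. The coding site of PSMC1 at chromosome 14 position 90259170 had 2.1, 4.41 and 4.67 in siPcif1, against 3.16, 4.09 and 5.07 in siScram, with widely overlapping ranges. That of PSME3 at chromosome 17 position 42837656 had 3.31, 2.14 and 3.36 in siPcif1, against 4.63, 3.71 and 4.22 in siScram, without overlap.

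Relative to internal DRACH sites, the gene-level change in BE(2)-C without ATRA had a median of -0.09 over 18 proteasome genes, against -0.18 over 1240 genes, and 13 (72.2%, beside 67.6%) were below 0. limma called 0 of them (beside 0.0%), 0 of the 18 were lower unadjusted, beside 11% of all genes, and the groups were separated in 0, beside 14.9%. The median was -0.22 without siScram replicate 1, -0.20 without siScram replicate 2, -0.14 without siPcif1 replicate 3 and -0.01 without siScram replicate 3, and -0.60 with no centring.

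In BE(2)-C with ATRA the 5'UTR levels of the proteasome genes overlapped between groups. The median RML of 40 5'UTR sites (22 genes) was 6.60, 5.76 and 5.26 with siPcif1, against 6.33, 10.3 and 4.97 with siScram. That of 32 internal sites was 2.63, 2.09 and 1.34 with siPcif1, against 1.43, 2.65 and 1.72 with siScram. siScram replicate 2 was the highest library in both, and siScram replicate 3 was lowest in 5'UTRs. The median change was -0.12 in 5'UTRs (all 5'UTR sites, -0.06) and 0.06 at internal sites (all internal sites, 0.14). Without siScram replicate 2 the 5'UTR median was 0.10, and the other single libraries left out gave -0.28 (siScram replicate 3) to -0.075 (siPcif1 replicate 3), with -0.23 without siScram replicate 1. The internal median was 0.15 without siPcif1 replicate 3 and -0.06 without siScram replicate 1, and ran from -0.07 (without siPcif1 replicate 1) to 0.22 (without siScram replicate 2). The excess of 5'UTR over internal levels was 1.25 ± 0.20 in siPcif1 and 1.5 ± 0.28 in siScram (SD, n = 3 each), with overlap. limma called 0 sites (beside 0.0%), and unadjusted it gave 1 lower 5'UTR site (2.5%, beside 5.85%) and 0 lower internal sites (beside 0.214%), with 0 higher in either region (beside 2.04% and 1.83%). Of the 40 5'UTR sites 26 (65%, beside 57.6%) had changes below 0. The lower one was a PSMB5 site at chromosome 14 position 23034910, with 2.74, 3.31 and 1.67 in the siPcif1 libraries, against 5.96, 6.4 and 4.49 in the siScram libraries, no overlap and a change of -0.93 ± 0.31 (limma adjusted p = 1). Separated groups with lower siPcif1 values were found at 2 5'UTR sites (5%, beside 9.03%) and at 0 internal sites (beside 0.801%), and with higher siPcif1 values at 0 5'UTR (beside 2.61%) and 0 internal sites (beside 4.79%).

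Lead sites of the core genes in the ATRA-treated cells overlapped between groups, except that of PSMB3. PSMB3 had 16.6, 14.6 and 14.2 in siPcif1, against 18.6, 19.5 and 20.4 in siScram, every siPcif1 library lower (-0.35 ± 0.39). PSMA4 had 18.4, 13.2 and 15.2 in siPcif1, against 31.7, 30 and 17.1 in siScram, where siScram replicate 3 lay within the siPcif1 range. PSMA5 had 9.33, 9.15 and 8.09 in siPcif1, against 9.25, 24.6 and 12.6 in siScram, with siScram replicate 2 far above the rest. PSMB1 had 5.65, 5.15 and 4.07 in siPcif1, against 4.29, 8.4 and 4.24 in siScram, again with siScram replicate 2 highest. PSMB2 had 4.98, 5.76 and 4.38 in siPcif1, against 5.64, 7.38 and 3.73 in siScram, with the siPcif1 range inside the siScram range. PSMB4 had 14.6, 12.2 and 12.9 in siPcif1, against 12.4, 25.6 and 13.2 in siScram, with siScram replicate 2 alone apart. PSMB5 had 6.92, 5.4 and 7.18 in siPcif1, against 7.08, 11.8 and 5.93 in siScram. PSMB6 had 10.3, 9.33 and 10.2 in siPcif1, against 7.55, 20.5 and 8.56 in siScram. PSMB7 had 8.19, 5.15 and 5.85 in siPcif1, against 8.46, 10.1 and 4.36 in siScram. In these last 3 genes siScram replicate 2 was the highest of the 6 libraries.

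Of the regulatory, activator and assembly genes in the ATRA-treated cells, PSMC1 had 14.9, 13.3 and 12.1 in siPcif1, against 14.5, 15.9 and 12.9 in siScram, with ranges that nearly coincided. PSMC2 had 112, 19.7 and 19.6 in siPcif1, against 21.6, 29 and 22 in siScram, with siPcif1 replicate 1 far above the rest. PSMC4 had 52.3, 49.2 and 32 in siPcif1, against 37.1, 79.4 and 104 in siScram, where siScram replicate 1 lay within the siPcif1 range. PSMC5 had 3.79, 4.9 and 3.42 in siPcif1, against 2.91, 4.69 and 3.64 in siScram, with ranges that overlapped widely. PSMD3 had 33.6, 25 and 25.6 in siPcif1, against 17.6, 31.4 and 112 in siScram, with siScram replicate 3 far above the rest. PSMD4 had 7.47, 7.35 and 7.88 in siPcif1, against 8.3, 22.3 and 6.74 in siScram, with siScram replicate 2 far above the rest. PSMD10 had 15.8, 7.92 and 11.7 in siPcif1, against 9.16, 10.5 and 10.3 in siScram, with the siScram range inside the siPcif1 range. PSME2 had 2.44, 3.79 and 3.51 in siPcif1, against 3.15, 4.98 and 5.34 in siScram, where siScram replicate 1 lay within the siPcif1 range. PSMG3 had 10.8, 16.1 and 11.7 in siPcif1, against 11.9, 21.6 and 9.16 in siScram, with the siPcif1 range inside the siScram range.

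The strongest internal sites with ATRA overlapped between groups as well. PSMC6 at its RefSeq start had 14.9, 11.3 and 15.2 in siPcif1, against 7.75, 75.1 and 8.98 in siScram, where siScram replicate 2 alone was high. PSMC3 had 8.81, 5.88 and 5.53 in siPcif1, against 6.48, 8.85 and 5.3 in siScram at chromosome 11 position 47426250, with ranges that nearly coincided. The PSMD5 site at position 120818051 had 8, 8.49 and 5.16 in siPcif1, against 4.61, 7.51 and 3.21 in siScram, with siScram replicate 3 lowest. A second PSMD5 site, at position 120820841, had 5.74, 2.5 and 3.66 in siPcif1, against 3.27, 5.12 and 2.34 in siScram, with wide ranges in both groups. PSMD13, a lid subunit, had 5.46, 5.4 and 3.8 in siPcif1, against 4.14, 5.85 and 3.08 in siScram at a 3'UTR DRACH site, with siScram replicate 2 highest. PSMD12, also of the lid, had 3.58, 4.65 and 3.07 in siPcif1, against 3.13, 4.35 and 3.63 in siScram at a coding site, with overlapping ranges.

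At gene level, relative to internal DRACH sites, 18 of 21 proteasome genes (85.7%, beside 76.2% of all genes) were below 0 in BE(2)-C with ATRA, with a median of -0.34, against -0.27 over 1234 genes. Without siScram replicate 2 it was -0.14, and without siScram replicate 1 -0.45. limma called 0 of them (beside 0.0%). Unadjusted, 4 were lower (19%, beside 16.6%), PSMA1 (-0.59 ± 0.19), PSMA4 (-0.81 ± 0.33), PSMA7 (-0.61 ± 0.20) and PSMD7 (-0.66 ± 0.26), a share near that of all genes. The groups were separated in 6 of 21 (28.6%, beside 22.8%).

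Across contexts, 18 genes had a 5'UTR site in all 3 tables and 9 of them had the same lead site in each, PSMA4, PSMB1, PSMB4, PSMB7, PSMC1, PSMC4, PSMD3, PSME2 and PSMG3. Of the 37 5'UTR sites in BE(2)-C without ATRA 34 (91.9%) were also listed in HEK293T, where they were 28.8% of 118. At the 34 shared sites the median change was -0.55 in HEK293T and -0.58 in BE(2)-C without ATRA. The 33 sites shared with BE(2)-C with ATRA had -0.65 in HEK293T and -0.13 there. The 29 sites of both BE(2)-C tables had -0.13 with ATRA and -0.62 without. The difference of changes had a median of 0.05, -0.41 and 0.55 in these 3 comparisons, beside -0.02, -0.58 and 0.55 over all shared 5'UTR sites. After centring each library over the shared sites, the median of HEK293T against BE(2)-C without ATRA was -0.41 and that of BE(2)-C with against without ATRA was -0.070. Leaving out single libraries gave -0.18 (without siScram replicate 3 of BE(2)-C without ATRA) to 0.19 (without siScram replicate 1 of it) in the first comparison, -0.61 to -0.34 in the next and 0.35 to 0.74 in the last. The interaction term of limma called 0 member sites in any pair (smallest adjusted p of a 5'UTR site 0.367, 0.43 and 0.275), beside 0.0% of all shared sites in each, except 0.0897% called higher with than without ATRA. Unadjusted it gave 0, 4 and 0 lower 5'UTR sites and 1, 0 and 2 higher ones (background lower 2.55%, 18.1% and 0.317%, higher 3.24%, 0.398% and 15.6%). At shared internal sites (21, 15 and 18) the median difference was 0.34, -0.14 and 0.54, beside 0.44, -0.09 and 0.55 over all shared internal sites. The BE(2)-C comparisons share no libraries between tables, but each table was scaled on its own, so levels were not compared across them.

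**Figure D4:**
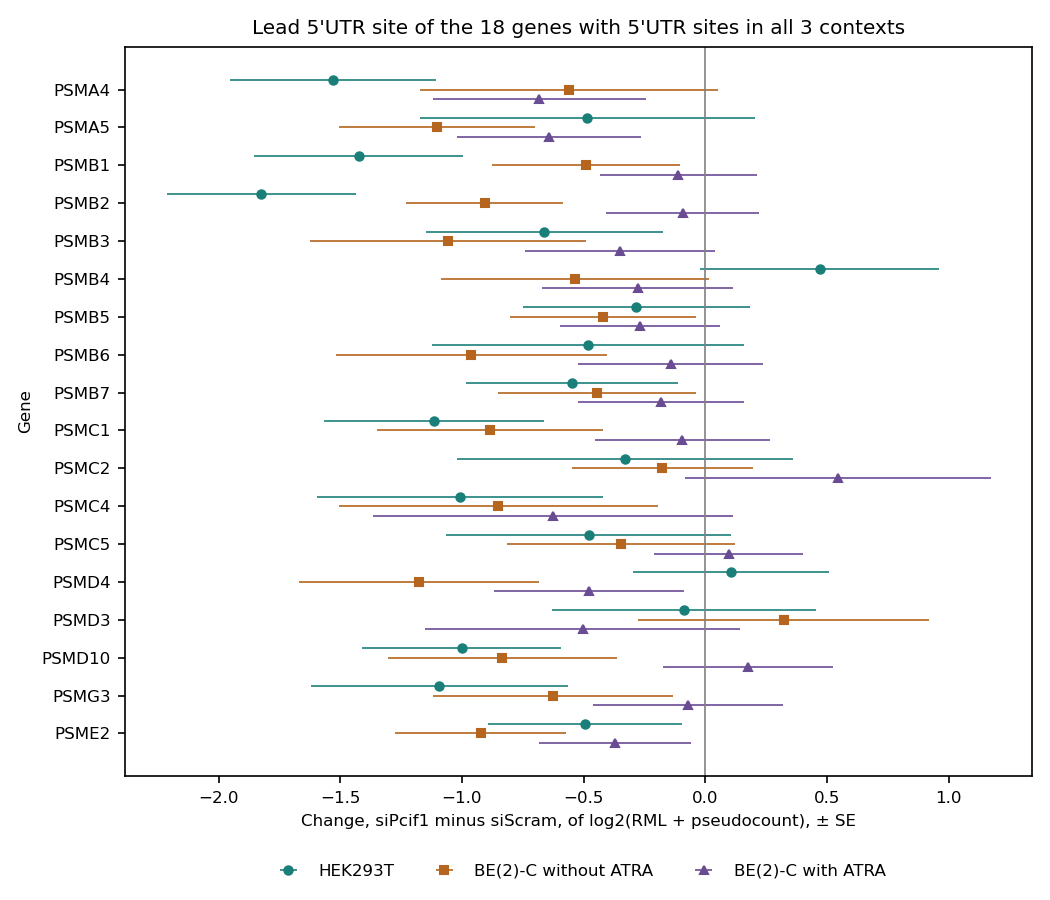
Change of log2(RML + pseudocount), siPcif1 minus siScram, with standard error (3 libraries per group), of the lead 5'UTR site of the 18 genes that had a 5'UTR site in all 3 contexts. Most HEK293T and BE(2)-C without ATRA points lie left of 0 and the BE(2)-C with ATRA points mostly lie nearer to it; the lead site can be a different position in each context.

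Other genes of the ubiquitin-proteasome pathway also had 5'UTR sites. In HEK293T, 67 5'UTR sites in 24 such genes had a median change of -0.62, with 0 called by limma and, unadjusted, 15 lower (22.4%, beside 30.3%) and 1 higher (beside 0.42%); the subunits' median was -0.54. Examples, chosen after their values were seen, were AKIRIN2, which carries proteasomes into the nucleus, with RML of 1.96, 1.49 and 0.468 with siPcif1, against 6.86, 3.04 and 5.70 with siScram (-1.84 ± 0.49), and FBXO7, a ubiquitin ligase subunit, with 0.490, 0.299 and 0.390 with siPcif1, against 1.07, 0.822 and 0.974 with siScram (-0.86 ± 0.19). In both genes every siPcif1 library was lower. Their 5'UTR sites in BE(2)-C had medians of -0.41 without ATRA (26 sites, 4 lower unadjusted, beside 36.5%; subunits, -0.59) and 0.11 with ATRA (23 sites, 0 lower, beside 5.85%, and 1 higher, beside 2.04%, in the assembly chaperone gene POMP; subunits, -0.12).

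Which sites the authors called gave a further view of the same libraries. In the authors' deposited table for HEK293T, 93 of 118 proteasome 5'UTR sites passed a DESeq2 p of at most 0.05 in both groups, 2 in siPcif1 alone (1.69%, against 2.57% of all 5'UTR sites) and 23 in siScram alone (19.5%, against 41.0% of all 5'UTR sites in the same table). In the authors' deposited table for BE(2)-C without ATRA 20 passed in both, 0 in siPcif1 alone (against 4.66% of all 5'UTR sites) and 17 in siScram alone (45.9%, against 49.5%). In the authors' deposited table for BE(2)-C with ATRA 19 passed in both, 9 in siPcif1 alone (22.5%, against 26.9% of all 5'UTR sites) and 12 in siScram alone (30%, against 21.5%).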

How the data were processed

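m6ACE libraries of human cell lines were read from 3 tables, one per context. The authors deposited a ratio (RML) for each library, with a formula and scaling not given in the sources used here. Per the file headers the tables also hold a log2 fold change and p-values, and in every listed site the smaller of the DESeq2 p-values the authors deposited was at most 0.05. Per the submitters' processing notes bcl2fastq 2.20, cutadapt 3.7, Bowtie2, STAR and DESeq2 were used with the hg38 build, with roles not given. Input libraries had no columns, the number of unused per-sample columns was 0, and read depth is unknown.

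Values were analysed as log2(RML + pseudocount), the pseudocount being the 5th percentile of each table (0.298 in HEK293T, 0.502 in BE(2)-C without ATRA and 0.857 with ATRA), which understates the change of low sites. limma 3.58.1 in R 4.3.3 was fitted on all sites of a table with an intensity trend in the variance and Benjamini-Hochberg adjustment. A filter on values above 0 in 3 libraries removed 0 sites. Interactions were fitted at sites listed in both tables. Scripts were tested on simulated data. Distances are to the gene start in RefSeq. Members and gene lists were chosen with earlier results of these data known.

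Sites described in full were the lead 5'UTR sites of genes with 5'UTR sites in all contexts, the 10 HEK293T lead sites with the smallest p, the 6 strongest internal sites per context and any site or gene called. Alternatives were other pseudocounts, centrings, a stricter filter, a replicate block, the deposited p-values, a fit with no variance trend, leaving out each library and, added after seeing the data, leaving out sites on an alternate contig.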

Additional observations from a re-analysis of the deposited data

How the results depend on the processing

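Under none of the alternatives run did a site or gene that limma called change sign. The median change of HEK293T 5'UTR sites was -0.34 with the pseudocount at the table's median and -0.66 to -0.46 when single libraries were left out, and that of internal sites was 0.13 after centring each library on its median and -0.17 among sites above the lower quartile. At gene level the HEK293T median was -0.36 with the pseudocount at the median, -0.75 with no pseudocount, -0.48 after centring on the library median and -0.71 above the lower quartile. The PSMD14 call (1 gene) became 0 with the pseudocount at the median, with centring on the median or none, above the lower quartile, with a replicate block, with no variance trend, and 0 to 0 without any 1 library. For BE(2)-C without ATRA, the median over 5'UTR sites was -0.11 after centring on the library median and -0.083 on internal DRACH sites, and the internal median 0.14 and 0.17; both counts of calls (1 and 1) became 0 under either centring, with no variance trend and with the deposited p-values as given or doubled. Above the lower quartile there were 2 and 0 calls, and the called PSMG3 site was removed by that filter. With single libraries left out the counts ran from 0 to 17 and from 0 to 46, the upper ends without siScram replicate 1. The gene-level median of that context was -0.60 with no centring. Between contexts the median difference was -0.41 for HEK293T against BE(2)-C without ATRA and -0.070 for BE(2)-C with against without ATRA after centring over shared sites, and 0 to 1 sites were called without single libraries in each, the 1 without siScram replicate 1 of BE(2)-C without ATRA. In a check of pairing, r of same-numbered siPcif1 and siScram replicates was 0.00 to 0.02 in HEK293T. It was 0.00 to 0.12 in BE(2)-C without ATRA and -0.31 to 0.06 with ATRA, so the numbers were not taken to pair samples. This r is a different quantity from the correlation of log2 values between libraries. By log2 values the same-numbered HEK293T pairs had 0.748, 0.794 and 0.805. The replicate block gave 6 5'UTR and 8 internal calls in BE(2)-C without ATRA, 0 genes in HEK293T and left the other counts of calls as they were. In the check of pairing, r of each HEK293T replicate was highest with its own number, by small margins (0.0043 against 0.0004 at replicate 3). The other contexts did not show this throughout. By log2 values HEK293T did not show it either, as siPcif1 replicate 1 had 0.748 with siScram replicate 1, against 0.756 and 0.758 with siScram replicates 2 and 3. The cause of these changes was not tested. Read depth is unknown, so what it limits could not be given.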

Other observations

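The antisense RNA PSMD5-AS1 had 2 sites in each BE(2)-C table. Without ATRA they had RML of 1.72, 3.25 and 2.15 in siPcif1, against 5.3, 3.64 and 5.73 in siScram (change -0.92) and of 2.86, 3.39 and 4.14 in siPcif1, against 3.46, 4.94 and 8.86 in siScram (change -0.58). With ATRA they lay at other positions and had 5.11, 6.13 and 3.39 in siPcif1, against 4.93, 14.4 and 7.41 in siScram (change -0.68) and 11.8, 10.9 and 7.3 in siPcif1, against 7.11, 7.88 and 4.14 in siScram (change 0.60). limma called none of these 4 sites at an adjusted p of at most 0.05.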
